A study of Mus musculus with 24 samples.

Results

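The 8 genes described here are *Adgrl3*, *Ptprf*, *Sdk2*, *Vstm2a*, *Islr2*, *Mme*, *Kif26b* and *Ccdc141*, out of 53392 genes quantified. They were chosen by their measured RNA levels, for being higher in *mdx* than in WT sorted MuSCs (muscle stem cells) or myoblasts, so their values in those contrasts are a description and carry no test. Most are known from neurons, where they act in adhesion, axon guidance, migration or synapse formation. The bulk RNA-seq data hold 8 groups of 3 libraries each, 24 in all. WT mice were C57BL/10ScSnJ and *mdx* mice were C57BL/10ScSn-Dmd(mdx)/J, which lack full-length dystrophin in every tissue because of a premature stop in *Dmd*, and both carried the Pax7-nGFP reporter. FiMuSCs were freshly isolated from uninjured hindlimb muscle and AMuSCs were isolated from muscle 3 days after cardiotoxin (CTX), which destroys myofibres. The sort for these cells took GFP-positive, α7-integrin-positive events that lacked CD45, CD11b, CD31 and SCA1, the surface marks of leukocytes, myeloid, endothelial and mesenchymal cells. Primary myoblasts were isolated from hindlimb muscle on magnetic columns without the GFP gate and cultured, and myotubes were myoblasts after 2 days of differentiation. Age and the number of mice behind a library were not given in the sources used here for these samples. *mdx* muscle degenerates and regenerates continuously, so the genotype of a sorted cell and the state of the muscle around it cannot be told apart.

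Cell adhesion receptors join a cell to its neighbours or to the matrix and pass signals inwards. MuSCs sit between the myofibre membrane and the basal lamina, where adhesion keeps them quiescent, and they leave this niche when activated. Neurons use the same protein families to steer axons and to align the sides of a synapse. *Adgrl3* (chr5:81020138-81825133, plus strand) encodes latrophilin 3, an adhesion G protein-coupled receptor that binds teneurins and FLRT proteins on the opposite cell. *Ptprf* (chr4:118208213-118291405, minus) encodes LAR, a receptor tyrosine phosphatase that works with liprins in axon guidance. *Sdk2* (chr11:113776374-114067046, minus) encodes sidekick 2, an immunoglobulin adhesion molecule that binds itself across synapses of the retina. *Vstm2a* (chr11:16257724-16427310, plus) encodes a secreted immunoglobulin domain protein. *Islr2* (chr9:58196297-58204319, minus) encodes Linx, a leucine-rich repeat protein of growing axons. *Mme* (chr3:63241537-63386030, plus) encodes neprilysin, a membrane peptidase that cleaves neuropeptides. *Kif26b* (chr1:178529125-178939200, plus) encodes an atypical kinesin of the Wnt5a-Ror pathway. *Ccdc141* (chr2:77009902-77170636, minus) encodes a coiled-coil protein that takes part in neuronal migration. All 8 are protein coding and positions are on GRCm38. The rule did not name gene length. Of the 8 genes, 6 span more than 100 kb, against 11.4% of 21951 annotated protein-coding genes, whose median is 17.4 kb. That share is over all annotated genes and not those detected in these cells. The comparison is a description of these 8 genes.

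RefSeq (GRCm38.p6) gave 14 promoter windows for the 8 genes, each running from 250 bases before to 50 bases after an annotated start. They were searched on both strands for the AP-1 site (TGANTCA), bound by Fos and Jun proteins, and for the E-box CAGCTG, read by myogenic factors. The windows shown are those of *Mme* and *Islr2*, both of which were higher in *mdx* FiMuSCs and AMuSCs and hold an AP-1 match, and that of *Ccdc141*, which was highest in myotubes and holds an E-box match. Matches are in capitals.
*Mme*, chr3:63295622-63295921, plus strand: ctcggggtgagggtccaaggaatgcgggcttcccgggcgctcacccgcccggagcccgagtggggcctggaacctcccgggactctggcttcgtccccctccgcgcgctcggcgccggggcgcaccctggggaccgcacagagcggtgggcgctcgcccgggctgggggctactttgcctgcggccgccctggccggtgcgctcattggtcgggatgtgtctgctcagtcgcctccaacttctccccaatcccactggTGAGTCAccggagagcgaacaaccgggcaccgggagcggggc
*Islr2*, chr9:58204270-58204569, minus strand: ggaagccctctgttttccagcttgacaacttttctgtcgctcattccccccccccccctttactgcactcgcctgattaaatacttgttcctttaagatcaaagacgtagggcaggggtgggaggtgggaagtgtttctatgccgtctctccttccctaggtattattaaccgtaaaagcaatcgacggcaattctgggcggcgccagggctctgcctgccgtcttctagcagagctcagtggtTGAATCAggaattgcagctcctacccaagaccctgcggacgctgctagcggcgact
*Ccdc141*, chr2:77170586-77170885, minus strand: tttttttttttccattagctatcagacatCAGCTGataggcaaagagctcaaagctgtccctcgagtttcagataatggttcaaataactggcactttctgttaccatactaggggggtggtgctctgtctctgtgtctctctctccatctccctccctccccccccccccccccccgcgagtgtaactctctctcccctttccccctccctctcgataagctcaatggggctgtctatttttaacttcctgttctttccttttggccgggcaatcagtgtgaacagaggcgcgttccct
The AP-1 match of *Mme* begins 8 bases after the start and that of *Islr2* begins 6 bases before it. In all, 3 of the 14 windows held an AP-1 match, of which a pair of overlapping *Mme* windows share 1, against 7.81% of 32851 promoter windows. The E-box stood in 2 of the 14, in *Ccdc141* and in 1 window of *Adgrl3*, against 16.3%. The windows of *Sdk2*, *Vstm2a*, *Kif26b* and *Ptprf* held neither. The GC box GGGCGG, which Sp1 binds, was in 11 of the 14 windows, against 35.7%. Overlapping *Adgrl3* windows share their GC box matches, so the windows are not independent. The share of G and C in the 14 windows was 46.0% to 76.7%, against a median of 52.7% over all promoter windows. Only the *Ccdc141* window (51.0%) and an *Mme* window (46.0%) were below that median. The GC box comparison did not allow for this. All the motif matches are matches of letters in these windows and not measured binding.

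Total expected counts per library ranged from 37280196 to 64429222. Levels are CPM, that is counts scaled to an equal library total with TMM factors over all 24 libraries, and are given as mean ± SD (n = 3). The sorted groups carried the defining MuSC marker: *Pax7* was at 1604 ± 306 CPM in WT and 1743 ± 241 CPM in *mdx* FiMuSCs. It was at 356 ± 21.5 CPM in WT and 809 ± 53.1 CPM in *mdx* AMuSCs. Of 8 MuSC markers, 3 were lower in *mdx* FiMuSCs without overlap. Their means were 161 against 321 CPM for *Calcr*, 56.1 against 334 CPM for *Chrdl2* and 279 against 487 CPM for *Myf5*. *Itga7*, *Vcam1* and *Cdh15* were higher in *mdx* FiMuSCs without overlap. In AMuSCs 5 of the 8 were higher in *mdx* without overlap, *Pax7* among them, and *Chrdl2* and *Sdc4* were lower. *Dmd* lay between 230 and 262 CPM in WT FiMuSCs and between 139 and 149.5 CPM in *mdx* FiMuSCs. It lay between 205 and 230 CPM in WT myotubes and between 38.1 and 47.1 CPM in *mdx* myotubes, without overlap in either state. In AMuSCs and myoblasts the *Dmd* levels of the genotypes overlapped, so these groups have no such check of their labels. In *mdx* myoblast replicate 2 *Dmd* was at 29.1 CPM, against 2.39 and 5.13 CPM in the other *mdx* myoblast libraries. The WT myoblast libraries read 5.41, 13.8 and 4.79 CPM. The sum of 10 neuronal markers was at most 8.66 CPM in any FiMuSC library, with *Snap25* at 0.0937 CPM or less. In AMuSCs the same sum was 28.8 to 34.5 CPM in WT and 14.8 to 38.6 CPM in *mdx*. Of it *Tubb3* alone gave 26.4 CPM and 23.5 CPM on average, and *Snap25* was at 0.102 CPM or less. The neuronal sum was also above that of FiMuSCs in culture. It was 37.8 to 107 CPM in WT and 36.0 to 65.3 CPM in *mdx* myoblasts, with *Nefm* at 41.1 ± 31.1 and 14.4 ± 6.05 CPM. In myotubes it was 13.1 to 24.7 CPM in WT and 15.7 to 21.1 CPM in *mdx*. Markers of other cells moved with genotype. The sum of 10 leukocyte markers was 78.5 to 361 CPM in WT and 487 to 1459 CPM in *mdx* FiMuSCs. Of 8 endothelial markers, *Cdh5*, *Tie1* and *Cldn5* were higher in *mdx* FiMuSCs without overlap and *Tek* was lower, and the sum was 278 to 329 CPM in WT and 247 to 688 CPM in *mdx*. The *mdx* maximum was in FiMuSC replicate 1, which stood apart in its sums of endothelial (688 against 251 and 247 CPM), Schwann cell (520 against 273 and 217 CPM) and mural markers (2470 against 1668 and 1443 CPM). In AMuSCs the leukocyte sum was 13.7 to 33.3 CPM in WT and 142 to 4033 CPM in *mdx*, where replicate 1 stood apart with *Ptprc* (CD45) at 169 CPM. *mdx* myoblast replicate 2 also stood apart, with a leukocyte sum of 188 CPM against 9.63 and 10.6 CPM, and with *Calcr*, a gene of quiescent MuSCs, at 20.8 CPM against 0.103 and 1.09 CPM. In bulk RNA, more cells of another type and more RNA per cell cannot be told apart.

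**Figure D1:**
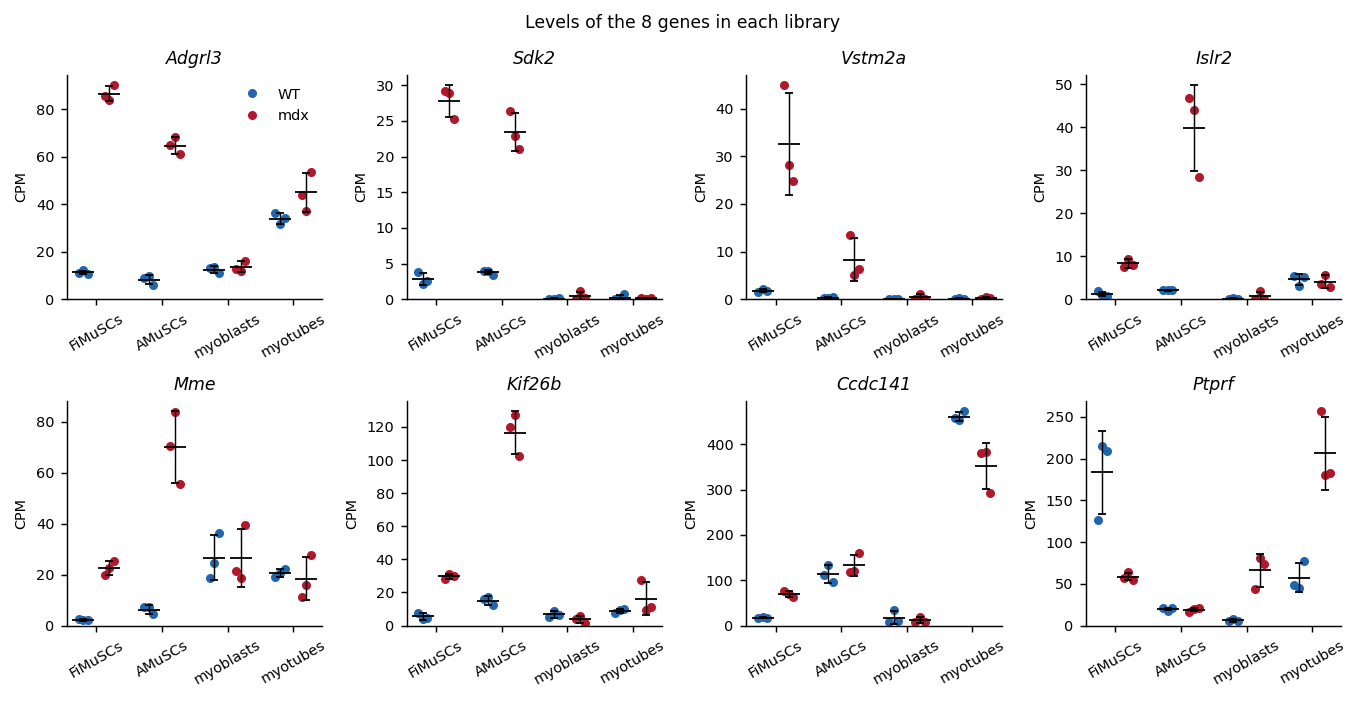
CPM of each of the 8 genes (vertical axis, linear, from 0) in the 4 states (horizontal axis), with 1 point per library in blue for WT and red for *mdx*. Black bars are the mean and SD of 3 libraries. *Adgrl3* sits near 86.6 CPM in *mdx* FiMuSCs and near 11.3 CPM in WT FiMuSCs, while *Ptprf* is lower in *mdx* FiMuSCs and higher in *mdx* myotubes.

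Of the 8 genes, 7 were higher in *mdx* FiMuSCs than in any WT FiMuSC library, and the exception, *Ptprf*, was lower than in any. Over all 19406 genes tested in FiMuSCs, 15.6% lay higher without overlap and 16.3% lower, and 9.67% passed an adjusted p under 0.05 (5.82% higher and 3.85% lower). In AMuSCs 6 of the 8 genes were higher in *mdx* without overlap, against 26.9% of 19321 genes, and *Ptprf* and *Ccdc141* overlapped. In myoblasts 5 of the 8 passed the filter on low counts, and of those *Ptprf* alone was higher in *mdx* without overlap, against 10.6% of 17226 genes. These counts follow from the way the genes were picked.

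*Adgrl3* read 10.9, 12.2 and 10.7 CPM in the WT FiMuSC libraries and 85.4, 84.0 and 90.4 CPM in the *mdx* ones. The *mdx* libraries varied little among themselves and their mean was 7.68 times the WT mean. In AMuSCs the WT libraries read 8.80, 9.75 and 6.17 CPM and the *mdx* libraries 64.7, 68.4 and 60.9 CPM, a ratio of 7.85. In culture WT myoblasts stood at 12.5 ± 1.39 CPM and *mdx* myoblasts at 13.6 ± 2.33 CPM with overlapping libraries. *Adgrl3* then stood at 34.0 ± 2.19 CPM in WT myotubes and 45.0 ± 8.27 CPM in *mdx* myotubes. *mdx* FiMuSCs, *mdx* AMuSCs, *mdx* myotubes and WT myotubes followed in that order with no overlap between neighbours, and both myoblast groups and WT FiMuSCs formed an overlapping set below them.

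*Sdk2* and *Vstm2a* were found almost only in sorted cells. *Sdk2* read 3.79, 2.20 and 2.55 CPM in WT FiMuSCs and 29.2, 28.9 and 25.2 CPM in *mdx* FiMuSCs, a ratio of means of 9.76. In AMuSCs it read 3.93, 4.00 and 3.46 CPM in WT and 26.3, 22.9 and 21.1 CPM in *mdx*, a ratio of 6.18. The *mdx* libraries of both sorted states overlapped. *Vstm2a* had the largest ratio of the 8 genes in FiMuSCs, with 1.45, 2.06 and 1.77 CPM in WT and 44.9, 28.1 and 24.9 CPM in *mdx*, or 18.5 times. The highest value, 44.9 CPM, was in *mdx* FiMuSC replicate 1, the library with the highest endothelial, Schwann cell and mural sums, and without it the fitted log2 fold change went from 4.21 to 3.90. In AMuSCs it read 0.330, 0.246 and 0.411 CPM in WT and 13.5, 5.04 and 6.35 CPM in *mdx*. Its highest *mdx* AMuSC value, 13.5 CPM, was in replicate 1, the library with the highest leukocyte sum, and without it the fitted log2 fold change went from 4.63 to 4.07. In the cultured libraries neither gene exceeded 1.10 CPM. For both genes that maximum was in *mdx* myoblast replicate 2, the library that stood apart in *Calcr* and leukocyte markers, and the part of those cells in it was not tested.

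*Islr2*, *Mme* and *Kif26b* were higher in *mdx* in both sorted states and highest in *mdx* AMuSCs. *Islr2* read 1.83, 1.02 and 0.754 CPM in WT FiMuSCs and 7.58, 9.46 and 8.04 CPM in *mdx* FiMuSCs. In AMuSCs it read 2.07, 2.23 and 2.05 CPM in WT and 47.0, 44.1 and 28.5 CPM in *mdx*, so that the mean ratio was 6.96 in FiMuSCs and 18.8 in AMuSCs. *Islr2* overlaps *Islr*, a leucine-rich repeat gene of mesenchymal cells, on the same strand. *Islr* was the more abundant, at 33.3 ± 6.10 CPM in WT and 427 ± 147 CPM in *mdx* AMuSCs, and 181 of the 5921 annotated exon bases of *Islr2* are also exon of *Islr*, all in 1 of its 3 transcripts. How reads of those bases were divided between the genes was not tested.

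*Mme* read 2.60, 2.06 and 2.08 CPM in WT FiMuSCs and 19.7, 22.5 and 25.5 CPM in *mdx* FiMuSCs, and the means differed 10.0-fold. In AMuSCs it read 7.15, 7.25 and 4.47 CPM in WT and 70.4, 83.9 and 55.6 CPM in *mdx*, an 11.1-fold difference. *Mme* was also present in culture, at 26.6 ± 8.89 CPM in WT and 26.5 ± 11.3 CPM in *mdx* myoblasts. WT MuSCs were therefore the low groups for *Mme*, and *mdx* FiMuSCs (22.6 ± 2.87 CPM) overlapped the myoblast levels of both genotypes. *Kif26b* read 7.68, 4.06 and 4.81 CPM in WT FiMuSCs and 28.1, 30.9 and 30.1 CPM in *mdx* FiMuSCs. In AMuSCs it read 15.9, 17.2 and 12.3 CPM in WT and 120, 127 and 102 CPM in *mdx*, so the ratio was 5.38 in FiMuSCs and 7.71 in AMuSCs. In myoblasts it was low in both genotypes, at 6.81 ± 2.00 CPM in WT and 3.73 ± 1.96 CPM in *mdx*.

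Markers of mesenchymal and mural cells were also higher in *mdx* AMuSCs. The sum of 8 mesenchymal markers was 662 to 762 CPM in WT and 1944 to 2949 CPM in *mdx* AMuSCs. That of 7 mural markers was 384 to 464 CPM in WT and 1069 to 1340 CPM in *mdx* AMuSCs. Of the 8 mesenchymal markers 7 were higher in *mdx* AMuSCs without overlap, and of the 7 mural markers 6 were. *Col3a1* gave most of the mesenchymal sum, at 575 ± 52.3 CPM in WT and 2035 ± 409 CPM in *mdx*. *Gsn* stood at 126 ± 5.54 and 419 ± 99.9 CPM, *Dpt* at 10.1 ± 1.76 and 53.5 ± 15.2 CPM, and *Ly6a* (SCA1, which the sort excluded) at 1.79 ± 0.316 and 8.19 ± 2.52 CPM. *Pdgfra* stood at 1.18 ± 0.387 CPM in WT and 3.39 ± 1.22 CPM in *mdx*, and *Dcn* at 1.38 ± 0.249 and 3.94 ± 1.35 CPM. In FiMuSCs the list split, with 4 of the 8 markers higher in *mdx* without overlap (*Pdgfra*, *Dcn*, *Lum* and *Ly6a*) and 2 lower. *Dcn* was 15.2 ± 8.56 CPM in WT and 33.4 ± 4.17 CPM in *mdx* FiMuSCs. The lower ones were *Dpt* (558 ± 73.2 CPM in WT and 374 ± 20.3 CPM in *mdx*) and *Gsn* (992 ± 46.9 and 855 ± 49.2 CPM). The whole sum was 3320 to 5708 CPM in WT and 3666 to 4142 CPM in *mdx* FiMuSCs. Schwann cell markers summed to 305 to 431 CPM in WT and 217 to 520 CPM in *mdx* FiMuSCs, and to 61.6 to 71.6 and 107 to 165 CPM in AMuSCs. The part of such cells in the levels of the 8 genes was not tested.

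*Ccdc141* had a genotype difference in FiMuSCs and little in AMuSCs. It read 16.9, 18.1 and 17.0 CPM in WT FiMuSCs and 76.1, 70.0 and 62.0 CPM in *mdx* FiMuSCs, or 4.00 times. In AMuSCs the libraries overlapped at 111, 134 and 95.1 CPM in WT and 117, 121 and 160 CPM in *mdx*. Its level was low in myoblasts, at 17.3 ± 14.3 CPM in WT and 12.1 ± 6.58 CPM in *mdx*, and highest in myotubes, at 461 ± 10.1 and 352 ± 51.1 CPM. WT myoblast replicate 2 read 33.6 CPM against 7.30 and 11.0 CPM, and in it *Myog*, a gene of differentiating myoblasts, was at 255 CPM against 44.8 and 56.0 CPM. Of 8 markers of differentiating muscle, 6 were higher in *mdx* FiMuSCs without overlap, *Myog* among them. Their sums overlapped, at 190 to 234 CPM in WT and 221 to 281 CPM in *mdx* FiMuSCs. In AMuSCs 1 of these markers, *Myod1*, was lower in *mdx* without overlap, as were all 7 proliferation markers. The part of such differences in the level of *Ccdc141* was not tested.

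*Ptprf* followed another pattern from the other 7 genes. It was the one gene of the 8 that was lower in *mdx* FiMuSCs, with 126, 215 and 209 CPM in WT and 57.5, 63.9 and 54.8 CPM in *mdx*. In AMuSCs it read 20.7, 18.0 and 21.0 CPM in WT and 16.6, 19.9 and 20.5 CPM in *mdx*, which overlap. In myoblasts the order was opposite to that of FiMuSCs, with 5.44, 7.84 and 5.32 CPM in WT and 43.7, 81.3 and 73.8 CPM in *mdx*, a ratio of 10.7. Without *mdx* myoblast replicate 2 the fitted log2 fold change in myoblasts was 3.25, against 3.43 with all 6 libraries, so that library did not carry it. The authors' TPM values, which allow for transcript length, summed to 1.80 in WT and 3.05 in *mdx* AMuSCs, although the counts overlapped.

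**Figure D2:**
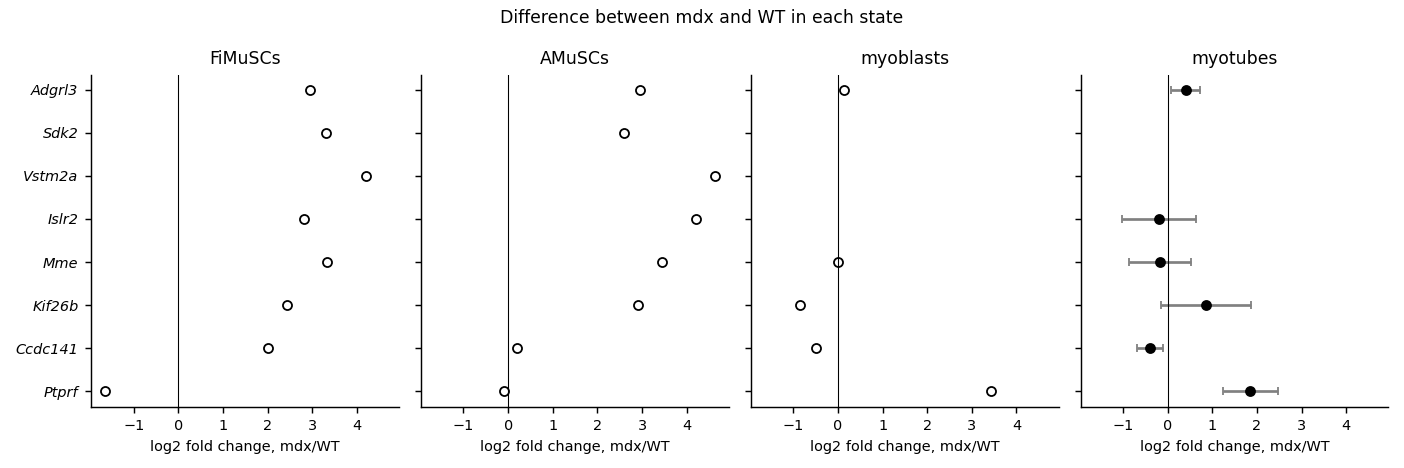
Log2 fold change of *mdx* over WT (horizontal axis) for each gene (vertical axis) in the 4 states. Open points are contrasts used to pick the genes and have no interval, filled points with bars are the myotube estimates with 95% intervals, and genes removed by the filter on low counts have no point. *Ptprf* sits at -1.64 in FiMuSCs, 3.43 in myoblasts and 1.85 in myotubes.

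Myotubes were not used to pick the genes, so *mdx* and WT myotubes could be tested, although myotubes are made from the cultures that myoblasts represent. In edgeR's quasi-likelihood test with Benjamini-Hochberg adjustment over 16084 genes, 6 of the 8 genes passed the filter and 1 was called, against 0.591% of all genes. *Ptprf* was higher in *mdx* myotubes, with 256, 180 and 182 CPM against 48.7, 45.4 and 77.3 CPM, and the groups did not overlap. Its log2 fold change was 1.85 (SE 0.255, 95% interval 1.24 to 2.46, adjusted p = 0.0416). The direction held under all 12 alternatives, between 1.64 and 2.13, but the call held in 5 of them. It was lost in each fit without 1 library except WT myotube replicate 3 (adjusted p between 0.0517 and 0.227), without the filter on low counts (0.112) and with a replicate block (0.177).

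The other tested genes did not pass in myotubes. *Adgrl3* read 36.2, 31.8 and 34.0 CPM in WT and 44.1, 37.2 and 53.7 CPM in *mdx* myotubes. It had a log2 fold change of 0.40 (95% interval 0.08 to 0.72, adjusted p = 0.295) with the *mdx* libraries above the WT libraries, as for 11.4% of all genes. *Ccdc141* read 458, 453 and 473 CPM in WT and 380, 382 and 293 CPM in *mdx* myotubes. It had -0.39 (-0.68 to -0.11, adjusted p = 0.260) with the *mdx* libraries below, as for 9.49%. *Kif26b* had 0.85 (-0.15 to 1.86, adjusted p = 0.434), and *mdx* myotube replicate 1, at 27.7 CPM against 9.65 and 11.2 CPM, set that value: without it the estimate was 0.19. *Islr2* and *Mme* had -0.20 (-1.02 to 0.63, adjusted p = 0.835) and -0.18 (-0.87 to 0.52, adjusted p = 0.821), intervals that reach to both sides of 0. *Sdk2* and *Vstm2a* stayed under the filter.

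The states before and after injury were set side by side in each genotype, as AMuSCs over FiMuSCs. The genes were picked on these same libraries, so the differences are a description with the standard error (SE) of the edgeR estimate and no test. Differences between these states were common. With all 24 libraries in 1 fit, 11732 of 22319 genes were called in WT and 7895 in *mdx*. The share of all genes without overlap between states was not counted. In WT, *Ccdc141* was higher in AMuSCs by a log2 fold change of 2.80 (SE 0.135), *Mme* by 1.57 (SE 0.257) and *Kif26b* by 1.55 (SE 0.255), and the AMuSC libraries of these genes lay above all FiMuSC libraries. *Ptprf* (-3.12, SE 0.223) and *Vstm2a* (-2.32, SE 0.349) were lower in AMuSCs, also without overlap. *Islr2* (0.91, SE 0.356) and *Adgrl3* (-0.36, SE 0.192) differed by less, and the *Sdk2* libraries of the states overlapped (0.50, SE 0.260).

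In *mdx*, *Islr2* had the largest difference upwards (2.24, SE 0.221), followed by *Kif26b* (1.97, SE 0.139), *Mme* (1.63, SE 0.187) and *Ccdc141* (0.94, SE 0.174), with AMuSC libraries above FiMuSC libraries for each. *Vstm2a* (-1.99, SE 0.413), *Ptprf* (-1.63, SE 0.153) and *Adgrl3* (-0.42, SE 0.119) were lower in AMuSCs without overlap, and *Sdk2* overlapped (-0.25, SE 0.147). Without *mdx* AMuSC replicate 1, the library rich in leukocyte markers, the estimate for *Vstm2a* was -2.50 and that for *Ccdc141* was 1.03. The log2 fold changes of *Ccdc141* were 2.80 in WT and 0.94 in *mdx* and those of *Islr2* 0.91 and 2.24, but differences between the genotypes in the response to injury were not tested.

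Myotubes were compared with myoblasts in the same way. The rule used the myoblast libraries, and *Ptprf* was picked for its level in *mdx* myoblasts, so these differences too are a description with no test. *Ccdc141* was higher in myotubes by 4.74 (SE 0.707) in WT and 4.90 (SE 0.422) in *mdx*, *Ptprf* by 3.21 (SE 0.280) and 1.67 (SE 0.276), and *Adgrl3* by 1.45 (SE 0.109) and 1.75 (SE 0.190). The myotube libraries of these 3 genes lay above the myoblast libraries in both genotypes. Such differences were common here too. With all 24 libraries in 1 fit, 11123 of 22319 genes were called in WT and 10802 in *mdx*. *Kif26b* had 0.41 (SE 0.236) in WT with overlapping libraries and 2.15 (SE 0.594) in *mdx* without overlap, where leaving out *mdx* myotube replicate 1 gave 1.51. *Mme* had -0.36 (SE 0.230) and -0.52 (SE 0.414), and its libraries overlapped in both genotypes. *Islr2* passed the filter on low counts only through its myotube level and is given as levels: 0.0541, 0.232 and 0.170 CPM in WT myoblasts and 5.52, 3.01 and 5.26 CPM in WT myotubes. In *mdx* it read 0.120, 1.89 and 0.152 CPM in myoblasts and 3.49, 5.75 and 2.86 CPM in myotubes, and the high myoblast value was in replicate 2, the library that stood apart.

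**Figure D3:**
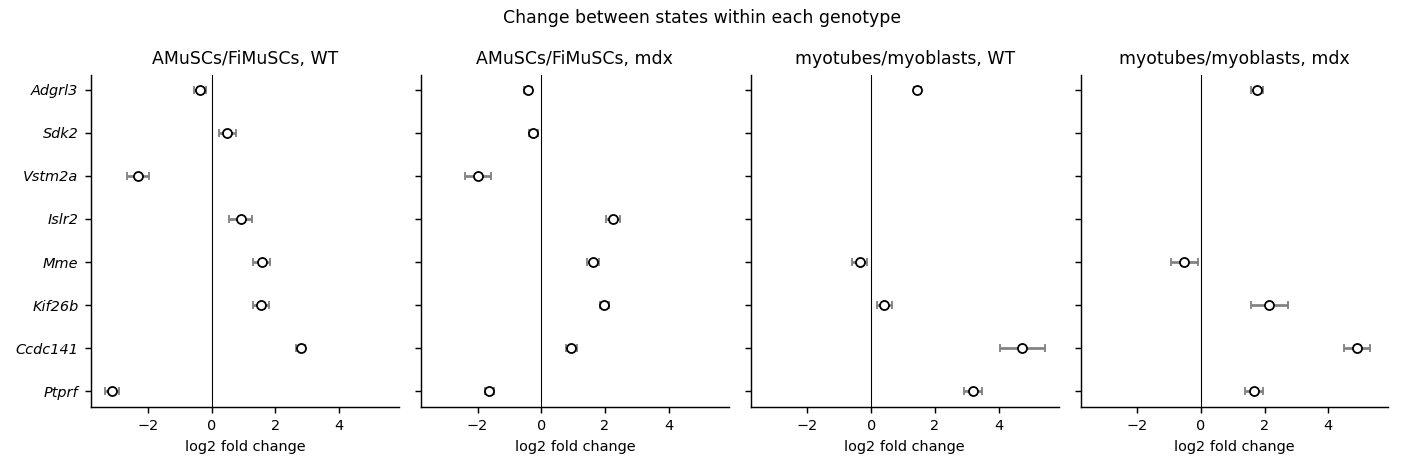
Log2 fold change between states (horizontal axis) for each gene (vertical axis), with AMuSCs over FiMuSCs in the left pair of panels and myotubes over myoblasts in the right pair, WT before *mdx*. Open points are edgeR estimates with no test and bars their SE, and genes removed by the filter on low counts, and *Islr2* on differentiation, have no point. *Ptprf* lies at -3.12 and -1.63 after injury and at 3.21 and 1.67 on differentiation.

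Levels can be compared between genes per length, in TPM as the authors deposited them, summed over the transcripts of a gene and averaged over 3 libraries. In *mdx* FiMuSCs *Adgrl3* stood at 42.1 TPM and *Ccdc141* at 40.9 TPM, ahead of *Vstm2a* (14.6 TPM), *Ptprf* (9.17 TPM), *Sdk2* (4.72 TPM), *Mme* (4.30 TPM), *Islr2* (2.74 TPM) and *Kif26b* (2.01 TPM). In WT FiMuSCs *Ptprf* led at 29.5 TPM, followed by *Ccdc141* at 7.41 TPM and *Adgrl3* at 4.92 TPM. These sums lean on short annotated transcripts. Those under 1000 bases took 72.5% of the *Ccdc141* sum and 49.2% of the *Adgrl3* sum in *mdx* FiMuSCs, and the leading transcripts were 363 and 241 bases long. The leading transcript of *Ptprf* was 7656 bases long and was the same in all 8 groups, and *Kif26b* had no transcript that short.

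Genes whose profile over the 24 libraries was most like each of the 8 were found by the root mean square (RMS) difference of centred log2 CPM. The nearest to *Adgrl3* were *Enox1* (RMS 0.530), *Dnah2* (0.644) and *Ece1* (0.664), against a median of 1.47 over all genes. *Enox1* stood at 5.21 CPM in WT and 28.7 CPM in *mdx* FiMuSCs. *Dnah2* was low throughout, with group means of 0.149 to 1.07 CPM. *Mme* was nearest to *Gper1* (0.613), *Cd109* (0.614) and *Ecm1* (0.641), and *Ccdc141* to *Cdc42ep2* (0.624), *Exoc3l* (0.644) and *Gatm* (0.690). *Islr2* was nearest to the sodium channel gene *Scn3a* (0.805), then *Afap1l2* (1.01) and *Sept4* (1.10). *Kif26b* was nearest to *Nccrp1* (0.832), *Slc40a1* (0.848) and *Ralgps2* (0.866). *Nccrp1* had group means of 0 to 0.694 CPM, so its profile rests on few reads. *Sdk2* was nearest to *Abcg1* (0.951), *Col4a6* (0.957) and *Gpc3* (1.03), *Vstm2a* to *Gda* (0.964), *Ednrb* (1.10) and *Enpep* (1.11), and *Ptprf* to *Etohd2* (0.899), *Gadl1* (0.902) and *Ocel1* (0.947). Within the 8 genes the closest profiles were those of *Adgrl3* and *Kif26b* (1.18), and the farthest were those of *Sdk2* and *Ccdc141* (3.86). Likeness over these libraries is a description and was not tested.

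The other genes of these pathways were followed in 7 lists of 109 genes in all. In FiMuSCs 87 of them were tested, 13 were higher and 10 lower in *mdx*, or 26.4% against 9.67% of all genes (5.82% higher and 3.85% lower), with a median log2 fold change of 0.12 against 0.00. In AMuSCs 79 were tested, 23 were higher and 7 lower, or 38.0% against 23.7% (14.8% higher and 8.95% lower), with a median of 0.39 against 0.04. In myoblasts 1 of 76 passed, *Lrrn2* (-0.94, adjusted p = 0.0324), against 0.360%, and in myotubes 1 of 72 passed, *Islr* (1.48, adjusted p = 0.0128), against 0.591%. Each of those single calls was lost in some alternatives, 8 of 12 for *Lrrn2* and 5 of 12 for *Islr*.

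Among latrophilins and their ligands, *Adgrl1*, the paralogue of *Adgrl3*, was lower in *mdx* FiMuSCs (30.4 ± 2.36 against 58.4 ± 4.03 CPM, log2 fold change -0.94, adjusted p = 0.00449). In AMuSCs *Adgrl1* stood at 41.1 ± 1.96 CPM in WT and 41.5 ± 5.44 CPM in *mdx*, while the ligand *Tenm4* was higher in *mdx* (76.8 ± 10.1 against 21.7 ± 5.44 CPM, 1.79, adjusted p = 0.00206, lost with all 24 libraries in 1 fit at 0.0582). In FiMuSCs 1 gene of this list was higher and 2 lower of 9 tested, and in AMuSCs 3 were higher and 1 lower of 8.

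In the list of LAR phosphatases, ligands and liprins, 2 were higher and 1 lower of 16 tested in FiMuSCs, and 3 were higher and 1 lower of 12 in AMuSCs. *Ptprd*, a close relative of *Ptprf*, was higher in *mdx* FiMuSCs (294 ± 19.6 against 155 ± 11.7 CPM, 0.93, adjusted p = 0.00367), where *Ptprf* itself was lower. It was also higher in *mdx* AMuSCs (1.34, adjusted p = 0.00389, lost with an offset for transcript length at 0.0575). *Ptprs*, the other member of the LAR class, stood at 147 ± 18.5 CPM in WT and 157 ± 6.84 CPM in *mdx* FiMuSCs and was higher in *mdx* AMuSCs (189 ± 18.6 against 74.2 ± 8.10 CPM, 1.32, adjusted p = 0.00153). *Slitrk5*, a synaptic ligand of these phosphatases, was lower in *mdx* in AMuSCs (-2.60, adjusted p = 0.00253) and in FiMuSCs (-2.26, adjusted p = 0.0214), the latter called in 6 of 12 alternatives.

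Of the immunoglobulin adhesion molecules 4 were higher and 1 lower of 17 tested in FiMuSCs, and 4 were higher and none lower of 18 in AMuSCs. *Cadm3*, a nectin-like adhesion molecule of neurons and Schwann cells, stood at 43.6 ± 11.6 against 5.45 ± 2.30 CPM in FiMuSCs (3.01, adjusted p = 0.00618) and 12.5 ± 2.61 against 2.99 ± 0.0964 CPM in AMuSCs (2.03, adjusted p = 0.00150), and both calls held under all 12 alternatives. *Sdk1*, the paralogue of *Sdk2*, was higher in *mdx* AMuSCs (1.28, adjusted p = 0.00617) under all 12. In FiMuSCs its 1.24 (adjusted p = 0.0237) came to 0.05 with an offset for transcript length. *Ncam1* was lower in *mdx* FiMuSCs (190 ± 6.34 against 288 ± 26.2 CPM, -0.60, adjusted p = 0.0134), a call held in 10 of 12 alternatives.

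Among leucine-rich repeat neuronal proteins 4 were higher and 1 lower of 12 tested in AMuSCs, led by *Islr* (3.65, SE 0.300, adjusted p = 0.000954), the neighbour of *Islr2*. In FiMuSCs 1 of 13 passed, *Lingo3*, which was lower but under 1 CPM in both genotypes. Of 6 peptidases related to *Mme*, 1 of 5 tested passed in FiMuSCs and 2 of 4 in AMuSCs. *Ece1*, the endothelin-converting enzyme, was higher in *mdx* FiMuSCs (191 ± 4.10 against 85.8 ± 4.37 CPM, 1.16, adjusted p = 0.00119) and AMuSCs (1.93, adjusted p = 0.00199). Both calls were lost with an offset for transcript length (0.10 and 0.0527). This gene was also among the 3 nearest in profile to *Adgrl3*.

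Of 9 genes that work with *Kif26b* or *Ccdc141*, all tested in both states, the receptor *Ror2* was lower in *mdx* FiMuSCs (-2.37, adjusted p = 0.00754, lost with all 24 libraries in 1 fit at 0.165) and no other passed. In AMuSCs *Ror2* was lower (-2.46, adjusted p = 0.0183, called in 8 of 12 alternatives) and *Ror1* higher (1.46, adjusted p = 0.00732, called in 11 of 12), as was *Ndel1*, which acts with dynein (0.57, adjusted p = 0.0125, called in 9 of 12). Of the neurexins, neuroligins and synaptic scaffolds 5 were higher and 4 lower of 18 tested in FiMuSCs, and 6 were higher and 2 lower of 16 in AMuSCs. *Nrxn3* was higher in *mdx* AMuSCs (5.95 ± 1.08 against 1.14 ± 0.128 CPM, 2.35, adjusted p = 0.00210), as was *Nlgn2*, which encodes a neurexin receptor of inhibitory synapses (75.6 ± 3.65 against 38.5 ± 0.169 CPM, 0.95, adjusted p = 0.00189). *Nlgn2* stood at 136 CPM in both genotypes in FiMuSCs. *Clstn3*, a calsyntenin, was lower in *mdx* FiMuSCs (-1.70, adjusted p = 0.00119, called in 11 of 12 alternatives), and its paralogue *Clstn2* was higher in *mdx* AMuSCs (1.95, adjusted p = 0.00208, called in 11 of 12).

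**Figure D4:**
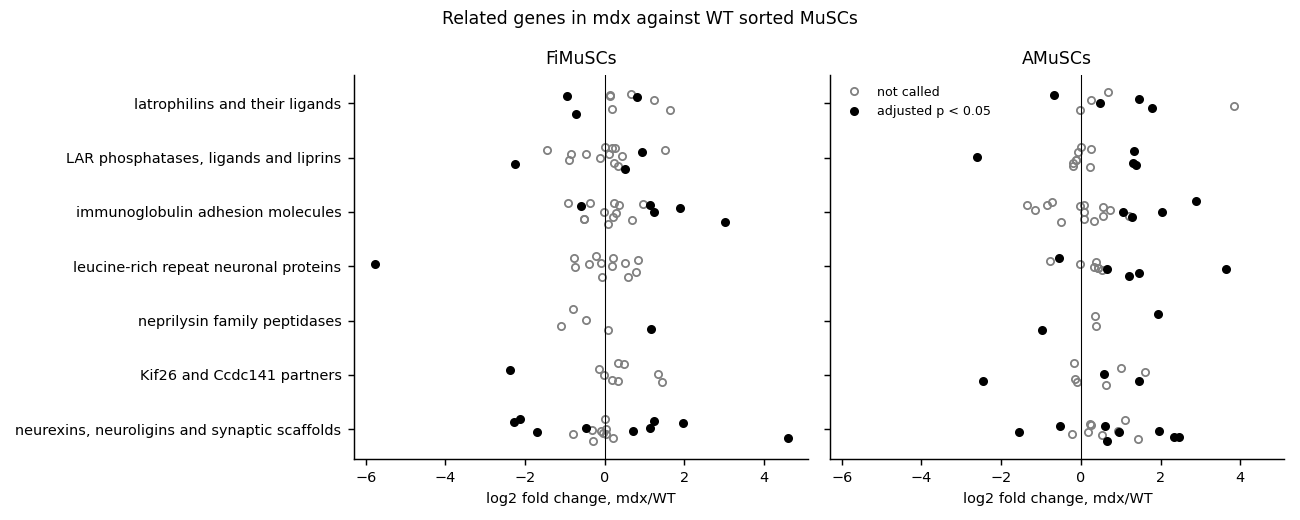
Log2 fold change of *mdx* over WT (horizontal axis) for the tested genes of each list (vertical axis) in FiMuSCs and AMuSCs, with 1 point per gene. Filled points passed an adjusted p under 0.05 and open points did not, and vertical scatter within a list only separates points. In FiMuSCs 13 filled points lie above 0 and 10 below, and in AMuSCs 23 and 7.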

How the data were processed

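PolyA RNA of 24 libraries (3 per group, labelled as separate samples and in the study's methods as biological triplicates) was sequenced after a directional library kit. The extraction kit differed between sorted and cultured cells, so it cannot be told apart from the origin of the cells. The files deposited by the authors give, per transcript, expected counts, TPM and effective lengths in bases. Salmon 0.13.1 and GRCm38 are credited to the submitters' processing notes, which also list DESeq2, and the strand setting was not given in the sources used here. Expected counts were summed per gene and rounded. Symbols, positions and lengths came from GENCODE M21 (GRCm38) and promoter windows from RefSeq (GRCm38.p6). The motifs were chosen after the values were seen.

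Each comparison used its 6 libraries. After filterByExpr and TMM scaling, genes were tested in edgeR 4.0.16 (robust quasi-likelihood, two-sided, R 4.3.3) with Benjamini-Hochberg adjustment over all genes, called at an adjusted p under 0.05. Levels are CPM with TMM factors from 22319 genes over all libraries, and log2 CPM used a prior count of 2. Depth was 37280196 to 64429222 counts per library (median 47357463), and the spread between replicates sets the precision. Recovery was tried on simulated counts in which 200 random genes were changed. More genes were called in the data in FiMuSCs (1876) and AMuSCs (4582). The adjustment is stricter when few genes change, so the simulated rates need not hold for those contrasts. On simulated counts of *mdx* against WT, 46.2% of genes changed by 2 times and 82.6% of those changed by 4 times were recovered in FiMuSCs (18947 genes), 32.1% and 78.9% in AMuSCs (18538 genes), 59.4% and 83.3% in myoblasts (16683 genes), and 65.3% and 92.8% in myotubes (15699 genes). Alternatives were RLE size factors, no filter, a replicate block, an offset for transcript length, DESeq2 1.42.0, all 24 libraries in 1 fit and leaving out each library, and for levels RLE size factors and TPM.

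For the 8 genes p-values are given in myotubes only, since every other contrast holds libraries on which they were picked. The 8 genes, the lists and the comparisons were chosen with earlier results of these data known. Named genes are the 8, up to 3 called genes per list and *mdx* comparison with the smallest p, the 3 nearest profiles per gene, markers that moved with a result, and *Dmd*. Of these, the text gives a subset of the called list genes.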

Additional observations from a re-analysis of the deposited data

Results flagged for a closer look

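*Ptprf* had opposite differences between the genotypes in FiMuSCs and in cultured cells. In AMuSCs, the other sorted state, the libraries of the genotypes overlapped. All *mdx* FiMuSC libraries lay below the WT libraries, with a log2 ratio of the mean CPM of -1.64, and all *mdx* myoblast libraries lay above them, with a ratio of 3.42. These ratios differ by 5.06. In myotubes all *mdx* libraries also lay above the WT libraries, at 1.85, which differs from FiMuSCs by 3.50. *Ccdc141* was higher in all *mdx* FiMuSC libraries (2.00) and lower in all *mdx* myotube libraries (-0.39), a difference of -2.39. These 3 differences between states were not tested, and the ratios in FiMuSCs and myoblasts were among those used to pick the genes.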

How the results depend on the processing

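In *mdx* against WT myotubes, where 6 of the 8 genes were tested, these genes kept their direction in every alternative except *Islr2*, which ranged from -0.53 to 0.01 with 1 library left out (positive without *mdx* myotube replicate 3), and *Mme*, from -0.59 to 0.06 (positive without *mdx* myotube replicate 1). Of 72 such refits 63 kept direction and side of the threshold, 7 lost a call, all of *Ptprf*, and 2 changed direction. In the contrasts given without a test, 554 of 588 refitted differences moved by less than 1 SE. For named relatives 354 refits kept the call and 90 lost it. The fitted difference of *Ptprf* in AMuSCs went from -0.09 to 0.56 with an offset for transcript length. Causes were not tested.

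Counts of genes called depended more on the method. In FiMuSCs 1876 genes were called, against 1223 with the length offset and 3130 by DESeq2. In AMuSCs 4582 were called, against 2892 with the length offset. In myoblasts 62 were called, against 124 without the filter, 27 with the length offset, 889 by DESeq2 and 432 with all 24 libraries in 1 fit. In myotubes 95 were called, against 196, 54, 686 and 250 in the same order. Leaving out 1 library gave 511 to 2503 calls in FiMuSCs, 1416 to 6305 in AMuSCs, 9 to 125 in myoblasts and 14 to 235 in myotubes. It gave 11666 to 12333 for injury in WT, 2663 to 5919 in *mdx*, 11125 to 11556 for differentiation in WT and 7472 to 8768 in *mdx*. Of the relatives, 10 in FiMuSCs and 19 in AMuSCs were called with the length offset. In myoblasts 2 were called without the filter, 0 with the length offset, 4 by DESeq2 and 3 in 1 fit of all libraries, and in myotubes 4 by DESeq2. Leaving out 1 library gave 8 to 23 calls of relatives in FiMuSCs, 13 to 30 in AMuSCs, 0 to 1 in myoblasts and 0 to 2 in myotubes.

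Deviations from the group means correlated over 0.1 in 2 of 24 pairs of libraries with the same replicate number (range -0.119 to 0.285). Pairs of a myoblast and a myotube library ranged from 0.029 to 0.06 in WT and from 0.003 to 0.285 in *mdx*. Pairs across genotypes come from different mice, so the count over all pairs cannot decide whether cultures were paired. With the number as a replicate block 1148 genes were called in FiMuSCs, 7 in myoblasts and 15 in myotubes, and 0 relatives in either of the cultured states.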
